A study of Homo sapiens with 6 samples.

Results

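The genes of MHC class I antigen presentation were followed in K1 cells, an established human papillary thyroid carcinoma line, after transfection with a negative control siRNA (NC, 3 libraries) or with an siRNA against the long NEAT1 transcript (si-NEAT1_2, 3 libraries). The 9 members, HLA-B, HLA-C, HLA-E, B2M, TAP1, TAP2, TAPBP, PSMB8 and PSMB9, were taken by gene symbol from the 20522 rows of each library. HLA-B matched a second row, an unannotated locus, so that the members made up 10 rows there and 9 of the 20322 rows of a further table, which holds the authors' single value per group. All 6 libraries came from the same cell line, and the study's methods describe lipid transfection, with no untransfected cells among these libraries. NEAT1 was not analysed here, so the groups are those of the labels, with no measure here of how far the target was lowered.

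Class I molecules show the cell's own peptides to cytotoxic T cells. A heavy chain such as HLA-B or HLA-C pairs with the light chain B2M, while HLA-E presents mainly leader peptides of other class I chains to receptors of natural killer cells. The peptides are cut by the proteasome, in which interferon can replace constitutive catalytic subunits by PSMB8 and PSMB9, are pumped into the endoplasmic reticulum by the TAP1 and TAP2 transporter, and are loaded with the help of tapasin, encoded by TAPBP. Interferon and NF-kB signalling are known to raise many of these genes, and epithelial cells express them at rest.

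Of the members, 8 lie in the MHC on chromosome 6 of GRCh38, from HLA-E (30489467 to 30494205, plus strand) to TAPBP (33299694 to 33314387, minus strand), and B2M lies on chromosome 15 from 44711487 to 44718877 on the plus strand (GENCODE release 29). HLA-C is annotated from 31268749 to 31272130 and HLA-B from 31269491 to 31357188, both on the minus strand. Their annotated spans share 2640 bases because 1 short HLA-B transcript, HLA-B-258, reaches into HLA-C. TAP2 (32821833 to 32838780), PSMB8 (32840717 to 32844703) and TAP1 (32845209 to 32853978) follow each other on the minus strand, and PSMB9 (32844136 to 32859585) runs on the plus strand. The span of PSMB9 holds all 8770 bases of TAP1 and shares 568 bases with PSMB8. Whether the counting used strand is not given in the sources used here, and strand could not separate HLA-B from HLA-C. The estimated counts of TAP1, PSMB8 and PSMB9 were whole numbers in every library, and those of HLA-B and HLA-C in none. How reads from such overlaps were assigned was not tested.

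Promoter sequences of 8 members were matched in RefSeq (GRCh38.p14), each window running from 250 bases before to 50 after a gene start, and HLA-E was not matched. A core of the interferon-stimulated response element (GAAA, then NN, then GAAA, both strands) was found in windows of 5 members, B2M, TAP1, TAP2, TAPBP and PSMB8, and in 3.57% of all 35116 windows in the table. An NF-kB motif was found in 5 members, HLA-B, HLA-C, B2M, TAP1 and TAPBP, and in 5.91% of all windows. A further motif, the GAS core (TTC, then NNN, then GAA), was found in 2 members, TAP1 and PSMB8, and in 7.66% of all windows. PSMB9 matched none of these motifs. A member was counted if any of its windows matched, and TAP1 and PSMB8 had 2 windows each. A match of this kind describes the letters and measures no binding. The sites below are shown because these members were read together after transfection. Capitals mark the motif, and each line reads 5′ to 3′ along the gene.
HLA-B, NF-kB motif at -176 from the start (chr6:31357336-31357365, minus strand): cgcagcgttgGGGATTCCCCactcccctga
HLA-C, NF-kB motif at -172 (chr6:31272245-31272274, minus strand): cgccgcgttgGGGATTCTCCactcccctga
TAP1, NF-kB motif at -72 (chr6:32853757-32853786, minus strand): gcctgttcctGGGACTTTCCgagagccccg
TAP1, response element core on the opposite strand at -128 (chr6:32853813-32853842, minus strand): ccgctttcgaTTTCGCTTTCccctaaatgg
TAP2, response element core at -58 (chr6:32838778-32838807, minus strand): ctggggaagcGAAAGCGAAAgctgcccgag
TAPBP, response element core at -20 (chr6:33314079-33314108, minus strand): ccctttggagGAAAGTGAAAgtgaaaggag
B2M, response element core at -138 (chr15:44711369-44711398, plus strand): ctaagaaaagGAAACTGAAAacgggaaagt
The flanks of the HLA-B and HLA-C sites read alike, and the HLA-B, TAPBP and B2M sites and the response element core of TAP1 each overlap a second match of the same motif.

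The libraries held between 22798631 and 27066025 counts, and 13109 rows passed the filter on low counts, all 10 member rows among them. NC replicate 2 and si-NEAT1_2 replicate 2 stood farthest apart among the libraries for the members, at -0.40 and 0.38 on the log2 scale of their mean level centred over the 6 libraries. The epithelial keratins KRT8 and KRT18 and the thyroid factor PAX8 were at FPKM values of at least 113 in every library, while the thyroid factor NKX2-1 had at most 3 counts and the adhesion gene CDH1 at most 29. The 9 leukocyte markers summed to 1.202 to 1.82 CPM (counts scaled to library size by edgeR's TMM method) in NC and 1.91 to 2.16 in si-NEAT1_2 libraries, with the pan-leukocyte gene PTPRC at no more than 4 counts. In bulk RNA a change in the number of expressing cells and in the RNA per cell cannot be told apart.

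K1 cells expressed all 9 genes in both groups. In FPKM, which is scaled to gene length and library size, B2M had the highest level, with a mean of 1274 over the 6 libraries and rank 75 of 13109. HLA-B followed at 164, HLA-E at 98.5, HLA-C at 74.0 and PSMB8 at 65.2. TAPBP had a mean FPKM of 32.8, PSMB9 of 29.5, TAP2 of 23.8 and TAP1 of 19.9, which still placed TAP1 above 70.9% of the genes tested. B2M lay above HLA-B in every library, and every value of PSMB8 lay above every value of TAPBP. The other neighbours in this order overlapped in their ranges over the 6 libraries, so their order was not resolved.

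**Figure D1:**
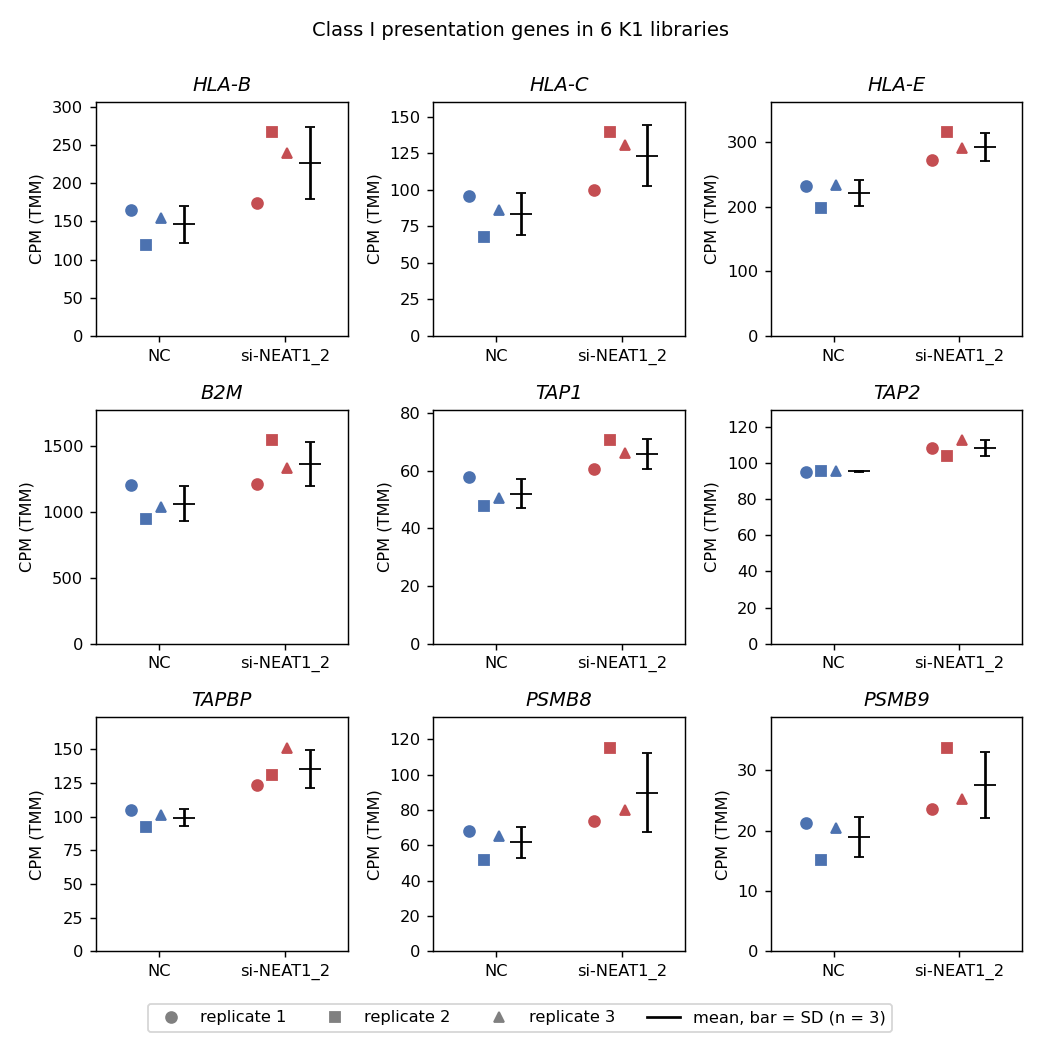
CPM after TMM scaling (vertical axes, from 0) of the 9 members in 3 NC (blue) and 3 si-NEAT1_2 (red) libraries, with marker shapes for the replicates and black bars for the mean and SD (n = 3). For each gene the 3 si-NEAT1_2 points sit above the 3 NC points, most clearly for HLA-E and TAPBP and least for B2M (1209 against 1202).

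The comparison between the groups asked whether class I presentation genes differed once NEAT1_2 was targeted. All 9 members had higher levels in the si-NEAT1_2 libraries, by 1.14-fold (TAP2) to 1.55-fold (HLA-B), where 50.9% of all genes tested had a log2 fold change above 0, and none reached an adjusted p under 0.05 with all 6 libraries in edgeR. In each of the 9, every si-NEAT1_2 library lay above every NC library in CPM, an arrangement that 15.4% of all genes tested showed. In FPKM the groups overlapped for TAP2, where si-NEAT1_2 replicate 2 (22.5) lay below NC replicates 1 and 2 (22.9 and 22.7). With edgeR's quasi-likelihood test, 0 members were called, the call being an adjusted p under 0.05 with at least 2-fold change (0.00% of all genes). At an unadjusted p under 0.05, 8 of the 9 were higher, against 11.2% of all genes, and TAP2 was not among them. The median log2 fold change was 0.45 over the members and 0.01 over all genes tested. DESeq2 also called 0 members, since none reached a 2-fold change there. It gave HLA-B (adjusted p = 0.0371) and TAPBP (adjusted p = 0.0487) an adjusted p under 0.05. Of the 10820 genes to which DESeq2 gave an adjusted p, 4.08% were under 0.05. Without si-NEAT1_2 replicate 1, HLA-B and HLA-C had an adjusted p of 0.0493 in edgeR's test, and 4.61% of all genes were under 0.05. With 3 libraries a group and no label that marks separate cultures, these p-values measure the spread between these libraries, which may be technical.

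Among the class I chains, HLA-B had CPM values, by replicate number, of 164, 119 and 155 in NC and of 174, 267 and 239 in si-NEAT1_2 libraries. The lowest si-NEAT1_2 library thus lay 1.06-fold above the highest NC library, and the other two well above all NC values. HLA-B reached 146 ± 23.9 in NC and 227 ± 47.4 in si-NEAT1_2 (SD, n = 3), a log2 fold change of 0.63 (SE 0.177, adjusted p = 0.170 from edgeR). HLA-C, the other classical heavy chain here, had 95.7, 67.7 and 86.4 CPM in NC and 99.7, 139 and 131 in si-NEAT1_2 libraries. Again si-NEAT1_2 replicate 1 was close to NC replicate 1 and NC replicate 2 was the lowest, and the log2 fold change was 0.57 (SE 0.167, adjusted p = 0.170 from edgeR). The estimated counts of both genes had fractional parts in all 6 libraries, the mark of reads divided between genes. Their separate values are therefore less certain than those of B2M, TAP1, PSMB8 and PSMB9, whose counts were whole in every library. Fractional counts also occurred for TAP2 in 6 libraries, for TAPBP in 4 and for HLA-E in 3.

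HLA-E had 232, 199 and 234 CPM in NC and 273, 315 and 291 in si-NEAT1_2 libraries. Its groups stood apart more clearly than those of HLA-B, because the spread within each was small, and its log2 fold change was 0.40 (SE 0.125, adjusted p = 0.170 from edgeR). B2M, the light chain shared by all class I molecules and the member outside the MHC, had 1202, 943 and 1035 CPM in NC and 1209, 1543 and 1332 in si-NEAT1_2 libraries. Its groups barely separated, NC replicate 1 and si-NEAT1_2 replicate 1 being nearly equal, and its log2 fold change was 0.36 (SE 0.149, adjusted p = 0.185 from edgeR). The second row named HLA-B, the unannotated locus, held only 10 to 35 counts a library, with overlapping groups and a log2 fold change of 0.33 (SE 0.478, adjusted p = 0.683 from edgeR).

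Among the genes of peptide transport and loading, TAPBP had 105, 92.2 and 101 CPM in NC and 124, 131 and 151 in si-NEAT1_2 libraries. It showed the widest gap of the 9 members between the groups, 1.18-fold from the highest NC to the lowest si-NEAT1_2 library, and a log2 fold change of 0.45 (SE 0.127, adjusted p = 0.170 from edgeR). TAP1 had 57.8, 47.9 and 50.6 CPM in NC and 60.5, 70.7 and 66.2 in si-NEAT1_2 libraries, a log2 fold change of 0.34 (SE 0.132, adjusted p = 0.178 from edgeR). Its partner TAP2 had 95.3, 95.5 and 95.6 in NC and 109, 104 and 113 in si-NEAT1_2 libraries. TAP2 was therefore nearly constant among NC libraries (SD 0.175) and had the lowest log2 fold change of the 9, 0.18 (SE 0.113, adjusted p = 0.317 from edgeR). For TAP2, si-NEAT1_2 replicate 2 was the lowest of its group, while for TAP1 it was the highest.

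PSMB8, an inducible catalytic subunit, had 68.2, 51.8 and 65.5 CPM in NC and 74.1, 115 and 80.2 in si-NEAT1_2 libraries. The value of si-NEAT1_2 replicate 2 stood above the others of its group, and the log2 fold change was 0.54 (SE 0.182, adjusted p = 0.170 from edgeR). PSMB9, the inducible subunit next to TAP1, had 21.3, 15.1 and 20.4 CPM in NC and 23.6, 33.7 and 25.3 in si-NEAT1_2 libraries. Its order over the libraries was the same as that of PSMB8, and its log2 fold change was 0.54 (SE 0.188, adjusted p = 0.170 from edgeR). Without si-NEAT1_2 replicate 2 the log2 fold change was 0.31 for PSMB8 and 0.36 for PSMB9.

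For each of the 9 members, a two-sided exact permutation test of the CPM gave p = 0.10, the smallest that 3 libraries against 3 allow. The size of the differences moved with GC content. Across 12581 genes, the log2 fold change correlated with the GC content of the longest transcript (Spearman's rho 0.646, a description across genes of the same libraries), and 8 of the 9 members had a GC content above the median of 48.4%. With trends in GC content and length removed per library, 9 of 9 members stayed above 0 (49.5% of all genes were), the median of the members became 0.20, and 5 of 9 had an unadjusted p under 0.05 (8.55% of all genes were so and higher). The median log2 fold change of the class I chains was then 0.22, and that of PSMB8 and PSMB9 was 0.16, with 0 of the 2 at an unadjusted p under 0.05. B2M, the member with the lowest GC content (39.4%), instead moved from 0.36 to 0.47 (SE 0.136, adjusted p = 0.184 from edgeR), and TAP2 from 0.18 to 0.30 (SE 0.0782, adjusted p = 0.174 from edgeR). The offsets took the longest transcript, of 1705 bases for B2M and 5684 for TAP2. The authors' FPKM implied shorter lengths in NC libraries, 945 to 946 bases for B2M and 4222 to 4432 for TAP2.

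The labels carry a library code, L2, L3 or L4, whose meaning they do not state. Within code L2 (2 NC and 1 si-NEAT1_2 library), 9 of 9 members were higher in si-NEAT1_2, with log2 differences from 0.12 to 0.99 and a median of 0.64, where 49.98% of all genes were higher. Within code L3 (1 library each), 9 of 9 were higher, with a range of 0.15 to 0.54 and a median of 0.25, where 49.6% of all genes were higher. The direction within both codes was fixed by the same CPM values, which did not overlap between the groups. It is therefore no separate result, and only the sizes add to it. Code L4 held si-NEAT1_2 replicate 1 alone. With NC replicate 2 left out, 3 of 9 members, HLA-B, HLA-C and TAPBP, had an unadjusted p under 0.05 (8.08% of all genes, in either direction). With NC replicate 2 and si-NEAT1_2 replicate 2 both left out, these 3 and HLA-E did (5.30% of all genes were so and higher). The members' median was then 0.23. In CPM, 9 of 9 members did not overlap there, as 22.1% of all genes did not in the same direction. For the members this had to follow, because groups apart over all 6 libraries stay apart in any subset of them. It is therefore no further check.

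**Figure D2:**
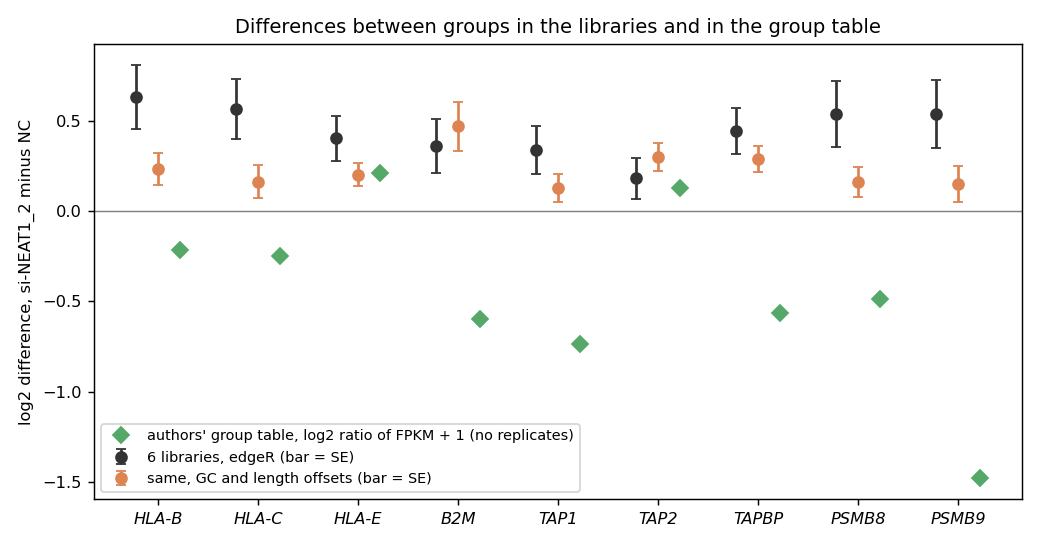
Log2 differences between si-NEAT1_2 and NC for the 9 members: black circles from edgeR on 6 libraries, orange circles from the same fit with GC and length offsets (bars, SE), and green diamonds for the authors' group table (log2 ratio of FPKM + 1, no replicates). The circles all lie above 0, with the orange ones lower except for B2M and TAP2, and 7 of the 9 diamonds lie below 0.

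FPKM and counts gave unlike sizes for HLA-B, which was seen only after the values were examined. Its FPKM was 108, 79.5 and 119 in NC and 200, 225 and 255 in si-NEAT1_2 libraries, so that the mean was 2.22-fold higher, while the other 8 members differed by 1.11-fold to 1.39-fold in FPKM. With limma-trend on log2(FPKM + 1), the log2 fold change of HLA-B was 1.16 (SE 0.157, adjusted p = 0.0760), against 0.63 from counts. The length that the authors' FPKM used can be recovered from the count, the FPKM and the library total. It was 1547, 1547 and 1325 bases for HLA-B in the NC libraries, by replicate number, and 886, 1093 and 932 bases in the si-NEAT1_2 libraries. Every si-NEAT1_2 library thus lay below every NC library, with lengths 34.2% shorter on the log-scale mean (two-sided exact permutation test, p = 0.10). GENCODE release 29 lists protein-coding HLA-B transcripts of 1547, 1089, 863, 240 and 147 bases, and in an RSEM estimate the length of a gene is a mean over its transcripts weighted by their shares. Among the 5654 genes whose log2 CPM averaged 5 or more, 5 genes (0.0884%) had a change in this length as far from 0 as HLA-B had, and in 1 (0.0177%), HLA-B itself, the si-NEAT1_2 libraries were all shorter by as much. The implied length of HLA-C changed by 0.06 on the log2 scale, and that of HLA-E, B2M, TAP1 and PSMB9 by less than 0.01. Which HLA-B transcripts the reads came from was not tested.

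**Figure D3:**
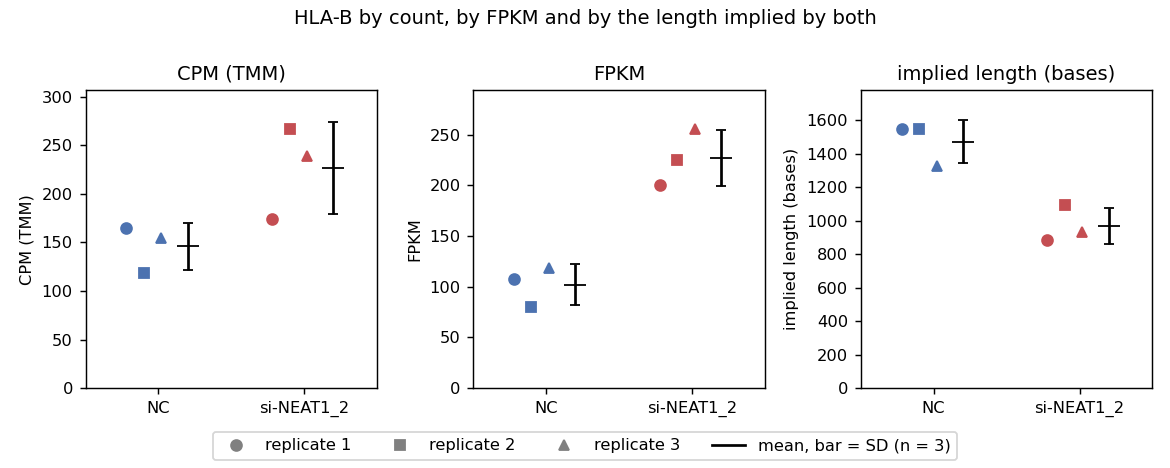
HLA-B in 3 NC (blue) and 3 si-NEAT1_2 (red) libraries as TMM-scaled CPM, as the authors' FPKM and as the gene length in bases implied by both; black bars are the mean and SD (n = 3), and all axes start at 0. Counts differ 1.55-fold between the groups and FPKM 2.22-fold, while the implied length lies between 1325 and 1547 bases in NC and between 886 and 1093 bases in si-NEAT1_2.

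In the proteasome, an inducible subunit takes the place of a constitutive one: PSMB8 that of PSMB5, PSMB9 that of PSMB6 and PSMB10 that of PSMB7. The ratio of their counts within a library does not depend on the scaling between libraries. PSMB8/PSMB5 was 0.399, 0.378 and 0.412 in NC and 0.421, 0.441 and 0.432 in si-NEAT1_2 libraries. These groups did not overlap, and the ratio was 1.09-fold higher (two-sided exact permutation test, p = 0.10, adjusted over the 3 ratios 0.20). PSMB9/PSMB6 was 0.185, 0.154 and 0.176 in NC and 0.204, 0.177 and 0.207 in si-NEAT1_2 libraries, where the highest NC value lay above the lowest si-NEAT1_2 value (1.14-fold, exact permutation p = 0.20). PSMB10/PSMB7 was 0.142, 0.124 and 0.163 in NC and 0.155, 0.197 and 0.166 in si-NEAT1_2 libraries, also with overlap (1.21-fold, exact permutation p = 0.20). The constitutive partners also had higher means, PSMB5 with a log2 fold change of 0.42, PSMB6 of 0.38 and PSMB7 of 0.36 (adjusted p = 0.179, 0.224 and 0.198 from edgeR), so that in these libraries the ratios moved less than PSMB8 and PSMB9 did. With GC and length offsets the partners stood at 0.10, -0.04 and 0.04. Without NC replicate 2 the log2 difference was 0.12 in place of 0.19 for PSMB9/PSMB6 and 0.17 in place of 0.28 for PSMB10/PSMB7, and without si-NEAT1_2 replicate 2 the latter was 0.18.

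**Figure D4:**
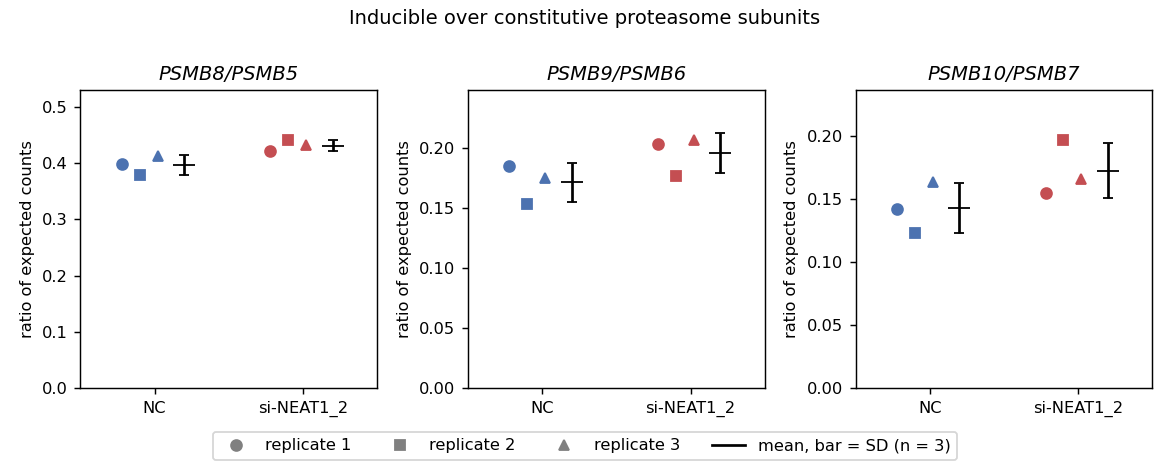
Ratios of expected counts of an inducible proteasome subunit over the constitutive subunit it replaces, in 3 NC (blue) and 3 si-NEAT1_2 (red) libraries, with axes from 0 and black bars for the mean and SD (n = 3). The groups are apart for PSMB8/PSMB5 (up to 0.412 in NC, from 0.421 in si-NEAT1_2) and overlap for the other ratios.

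Of the other genes of the pathway, 0 passed an adjusted p under 0.05 in edgeR's test, so they are given by unadjusted counts. Of 10 tested genes for other class I and class I-like chains, 4 were higher and 0 lower at an unadjusted p under 0.05, where 11.2% of all genes were higher and 12.9% lower. The lowest p belonged to HLA-F, a non-classical chain, with 16.3, 10.99 and 15.9 CPM in NC and 23.4, 29.9 and 26.8 in si-NEAT1_2 libraries (log2 fold change 0.89, SE 0.184, adjusted p = 0.170). Of the 4 inducible proteasome genes, 3 were higher, with PSME2, a subunit of the PA28 activator, at 0.57 (SE 0.160) and PSMB10 at 0.65 (SE 0.233). Of the 16 constitutive proteasome genes, 4 were higher and 1 lower, with a median of 0.26 and the lowest p for PSMB3, a structural subunit, at 0.57 (SE 0.178). With GC and length offsets the median of the constitutive genes was 0.09 and that of the inducible ones 0.17, and the log2 fold change was 0.16 for PSME2, 0.18 for PSMB10, 0.17 for PSMB3 and 0.53 for HLA-F.

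Of the 12 genes of peptide trimming and loading, 2 were higher and 2 lower, with a median of -0.04 and the lowest p for BCAP31, a protein that escorts membrane cargo from the endoplasmic reticulum, at 0.40 (SE 0.141) and at 0.03 with GC and length offsets. Among 27 regulators, 5 were higher and 6 lower, with a median of -0.07. IRF9, a factor of interferon signalling that binds the response element shown above, had the lowest p, with a log2 fold change of 0.64 (SE 0.168, adjusted p = 0.170 from edgeR) and of 0.35 with the offsets. IRF1, a factor that binds class I promoters, had 28.3, 21.9 and 27.1 CPM in NC and 31.4, 35.7 and 37.8 in si-NEAT1_2 libraries, a log2 fold change of 0.44 (SE 0.153, adjusted p = 0.170 from edgeR). NLRC5, the transactivator of class I genes, overlapped between the groups at 0.16 (SE 0.157, adjusted p = 0.521 from edgeR). Of 8 genes of class II presentation, 2 could be tested, and HLA-DRA had at most 10 counts in any library. The class II list summed to 7.51 to 9.67 CPM in NC and 14.0 to 17.8 in si-NEAT1_2 libraries, most of it from CD74, the invariant chain, which was named after its values were seen and had a log2 fold change of 1.03 (SE 0.207, adjusted p = 0.170 from edgeR) and of 0.66 with the offsets.

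The 9 members followed each other over the libraries. Pearson's r of the log2 level with the members' mean was at least 0.905 for 8 of them and 0.728 for TAP2, over 6 libraries that share their scaling. Each member is itself part of that mean, which raises its r. The 36 pairwise values had a median of 0.938, and the lowest was 0.533. Among 9461 other genes whose log2 CPM averaged 3 or more, those with a pattern most like the members' mean were PNPLA2, a triglyceride lipase, IGFBP7, a secreted binding protein, TKT, the pentose phosphate enzyme transketolase, CERS2, a ceramide synthase, and FKBP1A, an immunophilin. Their r lay between 0.997 and 0.999 over the 6 libraries, their log2 fold changes between 0.24 and 0.41, and none is in the pathway lists used here. The highest r of a member was 0.992 (HLA-C), so the pattern was not particular to the members.

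The authors' group table, with 1 value per group and no replicates, gave another picture. Its FPKM was lower in si-NEAT1_2 for 7 of the 9 members and higher for HLA-E and TAP2, where 64.8% of 11361 genes with an FPKM of at least 1 were lower and 35.2% higher. PSMB9 was at 64.6 in NC and 22.5 in si-NEAT1_2, 2.79-fold lower on the scale of FPKM + 1, and was the 1 member at least 2-fold lower (7.44% of all genes were). TAP1 was at 29.9 and 17.5, B2M at 1490 and 984, TAPBP at 49.7 and 33.4, and PSMB8 at 68.6 and 48.7. HLA-B was at 182 and 157 and HLA-C at 101 and 84.5, while HLA-E was at 136 and 157 and TAP2 at 14.9 and 16.4. The median log2 ratio was -0.49 over the members and -0.19 over all genes.

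Most values in the group table lay outside those of the libraries. For 8 members the NC value of the table was above all 3 NC libraries, and for TAP2 it was below all 3, with 87.5% of 11679 genes outside the range of the NC libraries. The gap was widest for PSMB9, whose table value for NC was 2.62-fold the mean of the NC libraries. In si-NEAT1_2 the table lay below all 3 libraries for 6 members and above them for HLA-E, while HLA-C and TAPBP lay within their libraries. Across genes, the NC column of the table and the mean NC library had a Spearman's rho of 0.832, against at least 0.984 between single NC libraries. The ratio PSMB9/PSMB6 was 0.402 in the NC and 0.131 in the si-NEAT1_2 column, opposite in direction to the libraries, and PSMB8/PSMB5 was 0.322 and 0.183. The implied length of HLA-B was 1120 bases in the NC and 1216 in the si-NEAT1_2 column, so the shorter length of the si-NEAT1_2 libraries was not seen there. Which samples the table was made from is not given in the sources used here.

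**Figure D5:**
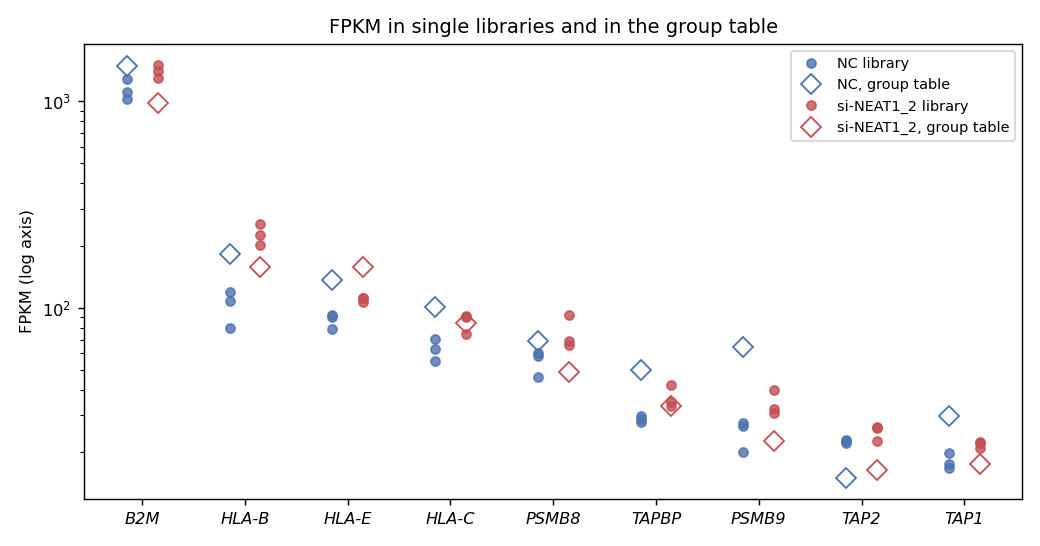
FPKM (log axis) of the 9 members, ordered by their mean over the libraries, in 3 NC (blue dots) and 3 si-NEAT1_2 (red dots) libraries, with open diamonds for the single value per group of the authors' table. The blue diamonds lie above the blue dots for every member except TAP2, and the red diamond of PSMB9 (22.5) lies below its red dots.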

How the data were processed

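mRNA of 6 K1 libraries was sequenced. Per the study's methods, rRNA depletion followed oligo(dT) selection, and the authors aligned reads with TopHat2 and used RSEM for quantification. The submitters' processing notes list GRCh38, fastp 0.18.0, Bowtie2 2.2.8, HISAT2 and StringTie 1.3.1. The deposited expected counts are not normalized, and FPKM, also deposited, was scaled by the authors to length and library size. The group table holds 1 count and 1 FPKM value per group.

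Expected counts were rounded to whole numbers, filtered with filterByExpr, scaled by TMM and tested over all 13109 rows with edgeR 4.0.16 (quasi-likelihood, Benjamini-Hochberg) in R 4.3.3. DESeq2 1.42.0 and limma 3.58.1 served as alternatives. GC and length offsets were splines with 5 degrees of freedom per library. The fits were tested on simulated data. Named were the 9 members, PSMB10, PSMB5, PSMB6, PSMB7, NLRC5, IRF1, the gene with the lowest p of each pathway list and the 5 genes nearest in pattern; 1 further regulator that the rule names is not reported here. Members and lists were chosen with earlier results of these data known.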

Additional observations from a re-analysis of the deposited data

How the results depend on the processing

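The number of members called was 0 under all 18 alternatives, where a call needed at least 2-fold change. Only HLA-B in FPKM reached that size (log2 fold change 1.16, adjusted p = 0.0760 and 0.0977 from limma-trend). The share of all genes called under each alternative is not given here. All 9 members kept a log2 fold change above 0 under each alternative. Where libraries were only left out, this direction was nearly fixed, because the groups did not overlap in CPM. The number with an unadjusted p under 0.05 was 8 (24.1% of all genes in either direction). It was 5 with GC and length offsets (16.4%) and 5 with these offsets and the replicate block (10.4%). When 1 library was left out it was between 3 and 8, and the share of all genes moved too. The count was 3 without NC replicate 2 (8.08%), and 8 without NC replicate 1 (20.5%) or without si-NEAT1_2 replicate 1 (33%). It was 4 without NC replicate 2 and si-NEAT1_2 replicate 2 together (10.2%), an alternative chosen after the data were seen. The median log2 fold change of 0.45 became 0.202 with the offsets, 0.2024 with offsets and block and 0.231 without both of these libraries. Leaving out single libraries gave 0.34 to 0.50 for this median. Over the alternatives the adjusted p ranged from 0.0371 to 0.557 for HLA-B, 0.0493 to 0.557 for HLA-C and 0.0487 to 0.557 for TAPBP. The log2 fold change of HLA-B ranged from 0.23 to 1.16, the highest in FPKM. The 3 proteasome ratios kept their direction in FPKM and without each library. When 1 library was left out, the log2 differences were 0.09 to 0.15 for PSMB8/PSMB5, 0.12 to 0.26 for PSMB9/PSMB6 and 0.17 to 0.38 for PSMB10/PSMB7. For PSMB8/PSMB5 the direction without each library had to follow, because its groups did not overlap. The study's methods speak of pairs of NC and si-NEAT1_2 cells without saying what a pair shared or which libraries form one. Libraries sharing a replicate number did not deviate together across genes (correlations of -0.282, -0.365 and -0.00797). The deviations were centred over only 3 libraries a group, so these values cannot decide whether cultures were paired. The main fit used no pairing. The replicate block gave 6 members with an unadjusted p under 0.05 (11.7% of all genes), a median of 0.44 and 0 members called, so it changed no call.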
